A study of Mus musculus with 12 samples.

Results

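The genes described here are 32 mouse genes of the hypoxia response and of glycolysis, taken by symbol from a fixed list and matched to the Ensembl identifiers of the count table. All 32 were found and all 32 held enough counts to be tested, among 16974 genes tested of 55487 identifiers. They comprise 14 genes of glucose uptake and glycolysis, 3 genes that route lactate and pyruvate, 14 target genes and sensors of the hypoxia response, and Hif1a. The samples were tumours of Sq-1979, a squamous carcinoma line of the mouse head and neck, which had been implanted subcutaneously in Matrigel into C3H/HeN males that were 6 weeks old. From day 20 after implantation the mice received both drugs (called the combination), regorafenib at 5 mg/kg/day, anti-PD1 (an antibody to a T cell checkpoint receptor), or vehicle. Each of the 4 groups has 3 samples, and every tumour came from the same line in the same strain, sex and age of host. No label states that samples of 1 group came from separate mice, so p-values measure the spread between these samples, which may be partly technical. The question addressed is whether the hypoxia response of the tumour moved with regorafenib, an inhibitor of VEGF receptors and other kinases, and with its genes of blood vessels.

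In cells with enough oxygen, prolyl hydroxylases (the Egln family) mark the HIF-alpha proteins for destruction by the VHL complex. When oxygen is short, HIF-alpha stays, pairs with Arnt, and binds DNA at the letters ACGTG or GCGTG near genes of glucose uptake, glycolysis, pH control, mitophagy and vessel growth. HIF1A itself is controlled mainly as a protein, so the level of its messenger RNA is not a readout of its activity. Solid tumours are known for regions far from vessels where this response is switched on, and for high glycolysis even where oxygen is present.

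Libraries held 22591835 to 28209036 counts, and the tested genes took 99.91% to 99.94% of them. Levels are CPM, which are counts scaled to library size with TMM factors. Keratin 5 (Krt5), a marker of basal squamous epithelium, stood at 5239 to 7890.3 CPM, so the labelled squamous origin was visible in all 12 libraries. The samples are whole tumours, in which fewer cells of a type and less RNA per cell cannot be told apart. Differences are log2 fold changes from edgeR's quasi-likelihood test with their standard error (SE), and a gene passed at a Benjamini-Hochberg adjusted p under 0.05 over all 16974 genes. The average regorafenib effect takes the mean of combination against anti-PD1 and of regorafenib against vehicle, with 6 libraries on each side.

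No gene of the 32 passed the test in any of the 7 comparisons, and several of them differed widely between single libraries. Adrenomedullin (Adm) spanned 10-fold over the 12 libraries, carbonic anhydrase 9 (Car9) 7.21-fold, Higd1a 3.79-fold, Bnip3 3.72-fold, Ndrg1 3.46-fold and the glucose transporter Slc2a1 3.26-fold. Most of them were highest together in the same libraries: combination 1, regorafenib 3 and vehicle 2 held the top level of their group for 29, 23 and 27 of the 32 genes. The genes nearest to the threshold were hexokinase 2 (Hk2) and phosphofructokinase P (Pfkp), which act in the first steps of glycolysis, both with a higher mean with regorafenib.

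**Figure D1:**
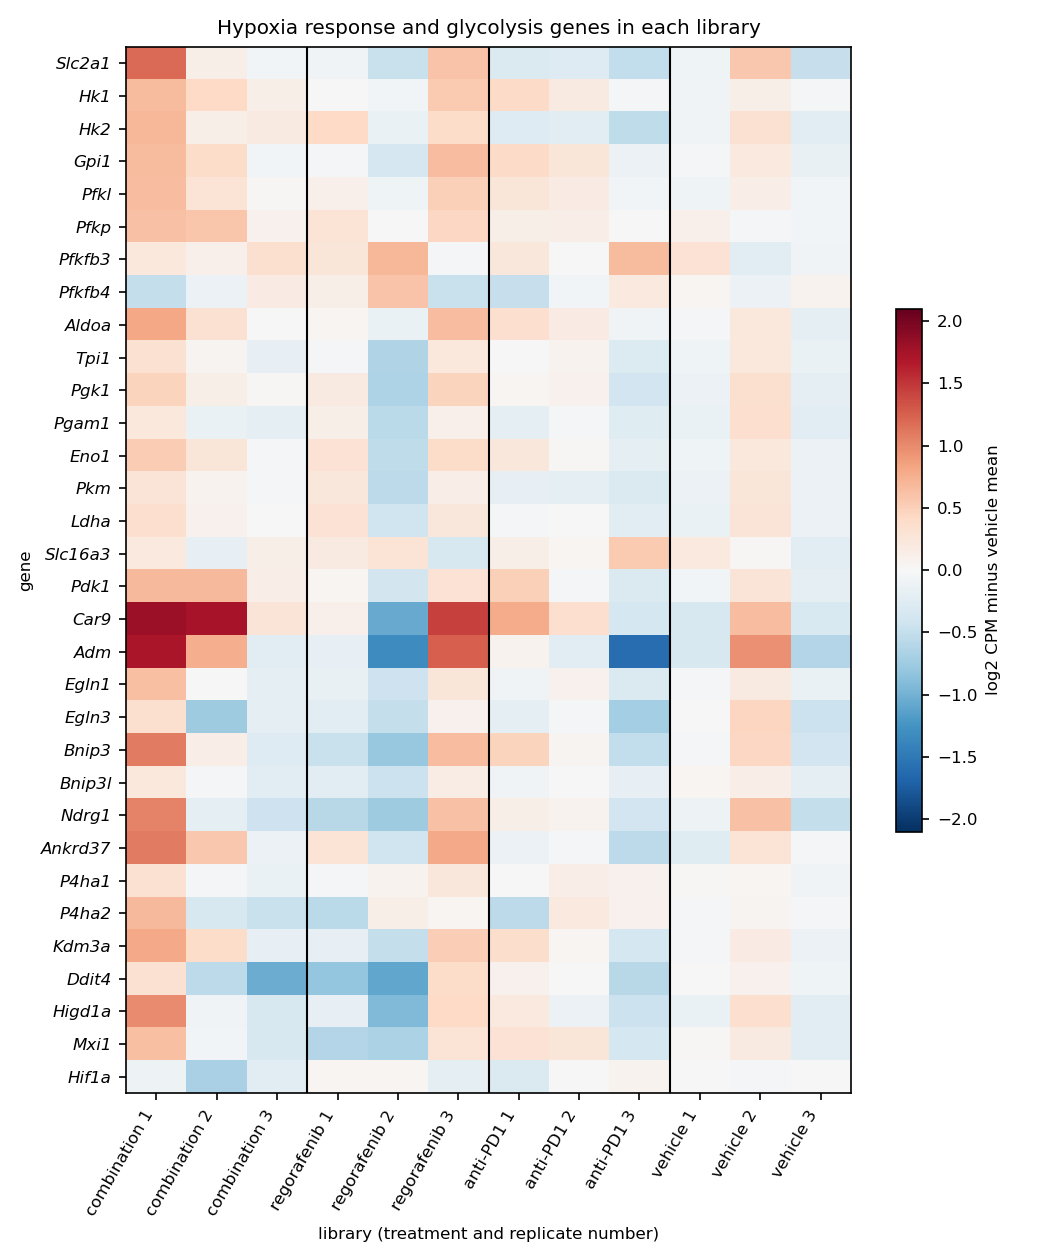
Log2 CPM of each of the 32 genes (rows) in each of the 12 libraries (columns), as the difference from the mean of the 3 vehicle libraries, red for higher and blue for lower. Combination 1 and regorafenib 3 are red and regorafenib 2 is blue over most rows, whereas Pfkfb4 is blue in combination 1 (-0.50) and regorafenib 3 (-0.47) and red in regorafenib 2 (0.61), and no treatment gives a uniform block of colour.

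Per length of exon, the most abundant of the 32 genes in vehicle tumours were Pgk1 at 381 CPM per kb, Aldoa at 360 CPM per kb, Pkm at 331 CPM per kb, Ldha at 237 CPM per kb and Tpi1 at 232 CPM per kb, all enzymes of the main glycolytic line. The hypoxia-regulated Ddit4, an inhibitor of mTORC1, followed at 180 CPM per kb, above Pgam1 at 116 CPM per kb, Ndrg1 at 105 CPM per kb and Egln3 at 101 CPM per kb. The lowest were the bifunctional regulators Pfkfb3 at 4.67 CPM per kb and Pfkfb4 at 2.21 CPM per kb, with the lactate exporter Slc16a3 between them at 3.46 CPM per kb. Eno1 is uncertain, because its near-identical copy Eno1b held 83.6 to 160.0 CPM and the counting may have split reads between them. Pkm shares 767 exonic bases with Gm49759 on the same strand, and Pfkp shares 748 with Pitrm1 on the opposite strand, and how reads there were assigned is not known.

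Promoter sequence is shown because HIF binds the core ACGTG and its variant GCGTG. RefSeq promoter windows on build GRCm38.p6, from 250 bases before to 50 bases after a start, existed for 30 of the 32 genes, Ndrg1 and Bnip3l having none. They were searched on both strands for the letters ACGTG and, as a variant core, the letters GCGTG. The reverse complement of the first reads CACGT, that of the second motif reads CACGC, and an E-box, whose letters are CACGTG, holds a match on each strand. Of the 30 genes, 28 had a match in some window, which is 93.3%, against 46.7% of the 27025 genes with a window. By window the shares were 34 of 43 (79.1%) for these genes and 14380 of 32851 (43.8%) for all. The windows of these genes also held a median of 24 CpG, against 7 over all windows, and the motif contains CG, so base composition moves with that share and its part was not tested.

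Shown in gene orientation, 5′ to 3′, with matches in capitals, are windows of 3 genes whose levels varied together between libraries, Car9 (chr4:43506776-43507075, plus strand), Adm (chr7:110627407-110627706, plus strand) and Bnip3 (chr7:138909457-138909756, minus strand). Beside them stand the gene nearest to the threshold, Hk2 (chr6:82774405-82774704, minus strand), and the gene that ran most clearly against the rest, Pfkfb4 (chr9:108991652-108991951, plus strand).
Car9: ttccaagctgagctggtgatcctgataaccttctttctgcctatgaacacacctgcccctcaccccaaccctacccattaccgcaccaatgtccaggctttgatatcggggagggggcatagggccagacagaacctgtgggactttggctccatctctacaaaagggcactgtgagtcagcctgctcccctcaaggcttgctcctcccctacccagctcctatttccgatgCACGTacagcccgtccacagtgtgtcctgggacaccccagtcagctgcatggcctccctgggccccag
Adm: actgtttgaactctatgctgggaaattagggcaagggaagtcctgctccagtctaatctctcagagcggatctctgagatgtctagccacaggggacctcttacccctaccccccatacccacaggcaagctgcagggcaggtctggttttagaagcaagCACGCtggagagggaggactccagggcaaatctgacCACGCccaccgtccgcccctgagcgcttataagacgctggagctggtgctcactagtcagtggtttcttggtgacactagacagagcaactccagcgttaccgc
Bnip3: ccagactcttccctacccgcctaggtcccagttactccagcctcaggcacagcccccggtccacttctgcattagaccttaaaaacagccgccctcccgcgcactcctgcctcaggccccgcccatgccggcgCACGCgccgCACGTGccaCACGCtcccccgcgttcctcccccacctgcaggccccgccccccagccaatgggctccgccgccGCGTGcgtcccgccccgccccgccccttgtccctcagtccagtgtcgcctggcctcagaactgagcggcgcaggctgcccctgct
Hk2: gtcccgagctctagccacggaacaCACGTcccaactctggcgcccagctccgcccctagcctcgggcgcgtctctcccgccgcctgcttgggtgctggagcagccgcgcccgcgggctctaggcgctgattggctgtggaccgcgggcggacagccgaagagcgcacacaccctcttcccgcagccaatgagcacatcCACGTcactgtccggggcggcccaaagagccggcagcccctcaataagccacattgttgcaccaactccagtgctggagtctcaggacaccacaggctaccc
Pfkfb4: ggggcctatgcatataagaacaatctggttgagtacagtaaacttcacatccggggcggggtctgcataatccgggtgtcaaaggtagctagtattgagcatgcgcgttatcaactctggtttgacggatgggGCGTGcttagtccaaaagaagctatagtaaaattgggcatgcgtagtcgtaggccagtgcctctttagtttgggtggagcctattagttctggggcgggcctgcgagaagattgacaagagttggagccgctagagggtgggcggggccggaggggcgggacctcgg
Car9 and Pfkfb4 each hold 1 match, Adm and Hk2 hold 2, and Bnip3 holds 5, of which 2 are the strands of 1 E-box. A match is a description of letters in the window, not a bound site, and the gene with the opposite pattern holds one as well.

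Of the 32 genes, Hk2 and Pfkp had the smallest edgeR adjusted p-values in the average regorafenib effect. Hk2 (ENSMUSG00000000628, chr6:82725025-82774454, minus strand), the inducible hexokinase that traps glucose in the cell, had 165, 111 and 116 CPM in the combination libraries, 135, 91.9 and 133 CPM in the regorafenib libraries, 84.0, 86.5 and 69.6 CPM in the anti-PD1 libraries and 96.1, 127 and 85.5 CPM in the vehicle libraries. All 3 combination libraries lay above all 3 anti-PD1 libraries, whereas the regorafenib and vehicle libraries overlapped. The 6 regorafenib-treated libraries averaged 125.2 CPM and the other 6 averaged 91.4 CPM, an average regorafenib effect of 0.46 ± 0.15 (log2, SE) with an edgeR adjusted p of 0.0686. It was 0.71 ± 0.21 in combination against anti-PD1 (adjusted p = 0.101) and 0.22 ± 0.21 in regorafenib against vehicle (adjusted p = 0.651), and the difference between these was 0.49 ± 0.29 (adjusted p = 1). By DESeq2 Hk2 passed in the average effect (adjusted p = 0.0241) and in combination against anti-PD1 (adjusted p = 0.027), and by edgeR it passed in the average effect without regorafenib 2, at 0.55 with an adjusted p of 0.0351.

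Pfkp (ENSMUSG00000021196, chr13:6579768-6648777, minus strand), the platelet form of the enzyme that commits glucose to glycolysis, had 399, 390.3 and 278 CPM in the combination libraries, 317, 257 and 351 CPM in the regorafenib libraries, 283, 286 and 263 CPM in the anti-PD1 libraries and 279, 252 and 251 CPM in the vehicle libraries. Combination 3 lay among the 6 libraries without regorafenib and the other 2 combination libraries lay above all 6 of them. The average regorafenib effect was 0.30 ± 0.10 (edgeR adjusted p = 0.0897) and combination against vehicle gave 0.45 ± 0.15 (adjusted p = 0.0825). Without combination 3 both passed, at 0.38 (adjusted p = 0.0284) and 0.60 (adjusted p = 0.0277), and without regorafenib 2 the average effect passed at 0.36 (adjusted p = 0.0473). DESeq2 also called both, with adjusted p-values of 0.0469 and 0.0387.

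The transporter Slc2a1 (ENSMUSG00000028645, chr4:119108711-119137983, plus strand), which carries glucose into the cell, had 539, 258 and 227 CPM in the combination libraries, 225, 172 and 357 CPM in the regorafenib libraries, 193, 197 and 165 CPM in the anti-PD1 libraries and 223, 353 and 169 CPM in the vehicle libraries. The 3 combination libraries were above the 3 anti-PD1 libraries, and combination 1 was the highest of all 12. Combination against anti-PD1 gave 0.89 ± 0.38 (edgeR adjusted p = 0.235), regorafenib against vehicle 0.02 ± 0.37 (adjusted p = 0.99), and the average 0.45 ± 0.27 (adjusted p = 0.298). That average was 0.21 without combination 1, 0.28 without regorafenib 3 and up to 0.62, without vehicle 2. Hexokinase 1 (Hk1), the constitutive form, had 376, 315 and 257 CPM in the combination libraries, 238, 227 and 345 CPM in the regorafenib libraries, 312, 271 and 232 CPM in the anti-PD1 libraries and 225, 257 and 229 CPM in the vehicle libraries. Its groups overlapped, with 0.20 ± 0.13 as the average regorafenib effect (adjusted p = 0.34) and 0.41 ± 0.19 in combination against vehicle (adjusted p = 0.174).

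Phosphoglycerate kinase 1 (Pgk1), which makes the first ATP of glycolysis, had 1166, 915 and 856 CPM in the combination libraries, 956, 536 and 1169.9 CPM in the regorafenib libraries, 870.3, 901 and 636 CPM in the anti-PD1 libraries and 770.4, 1066 and 727 CPM in the vehicle libraries. Its highest and lowest libraries were both in the regorafenib group, and the average regorafenib effect was 0.17 ± 0.19 (edgeR adjusted p = 0.605). Pfkfb3, which makes the activator of phosphofructokinase, had 40.8, 37.4 and 44.2 CPM in the combination libraries, 41.8, 56.5 and 33.9 CPM in the regorafenib libraries, 41.4, 34.8 and 55.2 CPM in the anti-PD1 libraries and 43.2, 29.8 and 33.0 CPM in the vehicle libraries. Regorafenib 2 and anti-PD1 3, low for most of the 32 genes, were the highest 2 libraries for Pfkfb3, and it had 0.32 ± 0.22 in regorafenib against vehicle (adjusted p = 0.521) and -0.42 ± 0.31 in the interaction, which is combination against anti-PD1 minus regorafenib against vehicle (adjusted p = 1). The other 8 genes of glucose uptake and glycolysis had average regorafenib effects from 0.02 for Pgam1 and Tpi1 to 0.23 for Aldoa, all positive, with Pfkl at 0.20, Eno1 at 0.17, Gpi1 and Pkm at 0.15 and Pfkfb4 at 0.05. Their levels ranged over the 12 libraries from 153 to 290.4 CPM for Pgam1, 408 to 792 CPM for Tpi1 and 341 to 711 CPM for Eno1 to 915 to 1819.7 CPM for Aldoa and 1121 to 1989 CPM for Pkm. Gpi1 ranged from 494 to 999 CPM, Pfkl from 211 to 354 CPM and Pfkfb4 from 7.60 to 16.4 CPM.

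**Figure D2:**
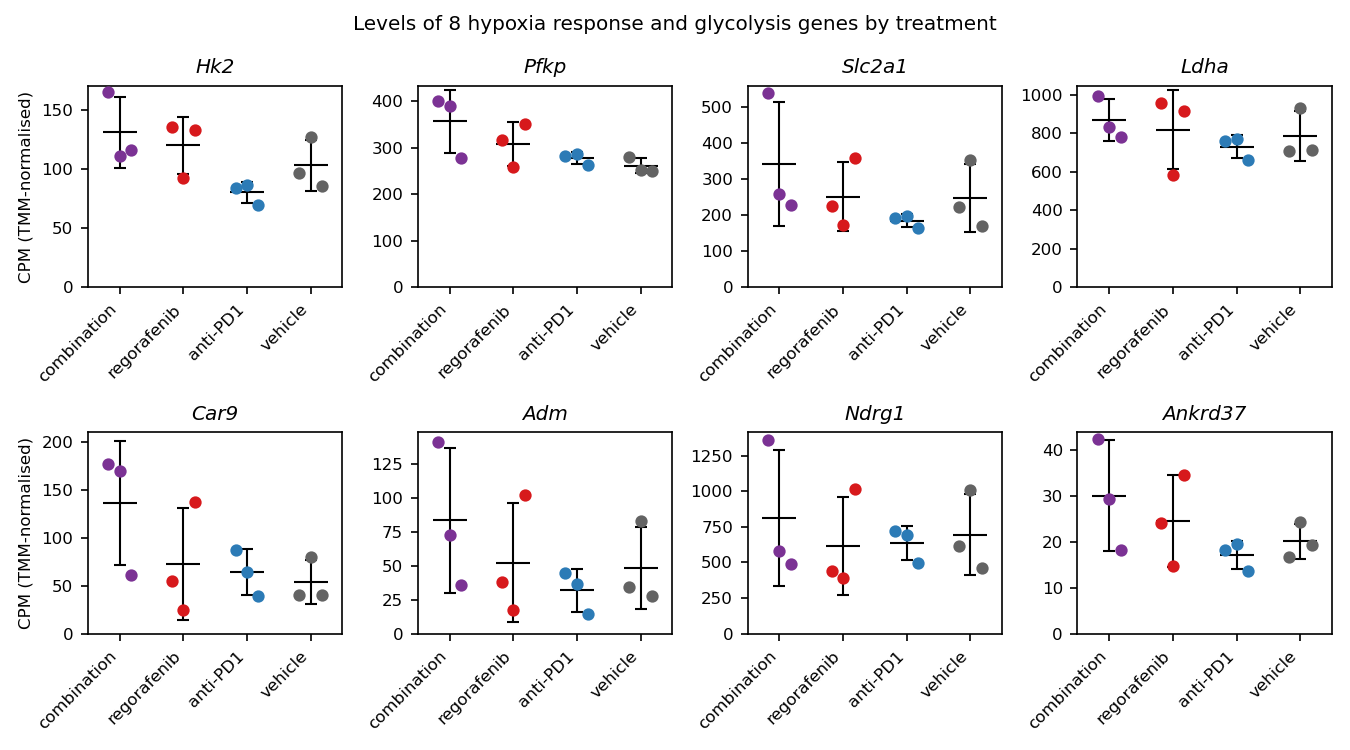
CPM (linear axis from 0) of 8 genes in each library, as points coloured by treatment, with the mean as a long bar and the SD over 3 libraries as the error bar. Combination 1 is the top point in the combination group in every panel, and the combination points lie above all anti-PD1 points for Hk2, Slc2a1 and Ldha but not for the other 5 genes.

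The 3 genes of the main list that route lactate and pyruvate showed no difference past the threshold in any comparison. Other genes of pyruvate handling, described below, did pass in the average regorafenib effect. These were Mpc1, Mpc2 and Pdk3, all lower, and each lost its call without some single libraries. Lactate dehydrogenase A (Ldha), which regenerates NAD by turning pyruvate into lactate, had 994, 832 and 784 CPM in the combination libraries, 956, 582 and 917 CPM in the regorafenib libraries, 761, 770.1 and 663 CPM in the anti-PD1 libraries and 707, 934 and 713 CPM in the vehicle libraries. The 3 combination libraries lay above the 3 anti-PD1 libraries, the regorafenib and vehicle libraries overlapped, and the average regorafenib effect was 0.16 ± 0.14 (edgeR adjusted p = 0.492). Pyruvate dehydrogenase kinase 1 (Pdk1), which inhibits pyruvate dehydrogenase, had 157, 159 and 108 CPM in the combination libraries, 101, 75.3 and 122 CPM in the regorafenib libraries, 139, 95.8 and 79.6 CPM in the anti-PD1 libraries and 94.6, 119 and 84.8 CPM in the vehicle libraries. It was highest in combination 1 and 2 and lowest in regorafenib 2, with 0.51 ± 0.24 in combination against vehicle (adjusted p = 0.202) and 0.29 ± 0.17 as the average anti-PD1 effect (adjusted p = 0.591). The lactate exporter Slc16a3 ranged from 14.5 to 26.7 CPM, with an average regorafenib effect of -0.07 ± 0.14 (adjusted p = 0.799).

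Among direct targets of HIF the largest differences also had the largest errors. Car9 (ENSMUSG00000028463, chr4:43506966-43513729, plus strand), a membrane enzyme that controls pH and a usual marker of hypoxic tumour, had 177, 169.9 and 61.6 CPM in the combination libraries, 55.0, 24.5 and 138 CPM in the regorafenib libraries, 87.5, 64.8 and 39.5 CPM in the anti-PD1 libraries and 40.4, 80.1 and 40.8 CPM in the vehicle libraries. The means were 136 ± 64.7 CPM in combination and 53.8 ± 22.8 CPM in vehicle tumours (SD, n = 3 each), and combination 3 lay within the vehicle range. The average regorafenib effect was 0.76 ± 0.42 (edgeR adjusted p = 0.27) and combination against vehicle 1.34 ± 0.60 (adjusted p = 0.178). The average was 0.33 without regorafenib 3 and lay between 0.63 and 0.97 without any other single library. Adm (ENSMUSG00000030790, chr7:110627661-110629820, plus strand), a secreted peptide that widens and grows vessels, had 141, 72.7 and 36.0 CPM in the combination libraries, 38.1, 17.1 and 102 CPM in the regorafenib libraries, 44.9, 36.7 and 14.1 CPM in the anti-PD1 libraries and 33.98, 82.9 and 27.7 CPM in the vehicle libraries. Its highest library, combination 1, and its lowest, anti-PD1 3, differed 10-fold, and combination against anti-PD1 gave 1.39 ± 0.72 (adjusted p = 0.325), with the libraries of the 2 groups overlapping.

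Ankrd37, an ankyrin repeat protein used as a hypoxia signature gene, had 42.4, 29.4 and 18.2 CPM in the combination libraries, 24.1, 14.8 and 34.7 CPM in the regorafenib libraries, 18.3, 19.5 and 13.6 CPM in the anti-PD1 libraries and 16.7, 24.2 and 19.4 CPM in the vehicle libraries. Combination 1, combination 2 and regorafenib 3 lay above all 6 libraries without regorafenib, and the other 3 with regorafenib lay within their range. The average regorafenib effect was 0.55 ± 0.24 (edgeR adjusted p = 0.165), and part of its exons overlap Lrp2bp and Ufsp2 on the opposite strand. Ndrg1 (ENSMUSG00000005125, chr15:66929318-66969640, minus strand), a stress protein induced by low oxygen, had 1357, 581 and 490.4 CPM in the combination libraries, 439.6, 392 and 1014 CPM in the regorafenib libraries, 718, 693 and 497 CPM in the anti-PD1 libraries and 613, 1009.5 and 464 CPM in the vehicle libraries. Here combination 1, regorafenib 3 and vehicle 2 stood above the other 9 libraries, and the average regorafenib effect was 0.09 ± 0.33 (adjusted p = 0.894). That value was -0.21 without combination 1, -0.20 without regorafenib 3 and -0.03 without vehicle 3.

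Bnip3, which directs mitochondria to autophagy, had 308, 158 and 119 CPM in the combination libraries, 105, 82.7 and 226 CPM in the regorafenib libraries, 199.5, 150.5 and 101 CPM in the anti-PD1 libraries and 141, 195 and 109 CPM in the vehicle libraries. Its average regorafenib effect was 0.14 ± 0.31 (edgeR adjusted p = 0.82), and it was -0.11 without combination 1 and -0.14 without regorafenib 3. The groups overlapped, with combination 1 on top and regorafenib 2 at the bottom. The prolyl hydroxylase Egln3, an oxygen sensor that HIF itself induces, had 328, 156 and 224 CPM in the combination libraries, 219, 184 and 276 CPM in the regorafenib libraries, 224, 256 and 158 CPM in the anti-PD1 libraries and 258, 357 and 190.4 CPM in the vehicle libraries. Vehicle 2 was its highest library and combination 2 its lowest, and the average regorafenib effect was -0.05 ± 0.21 (adjusted p = 0.912). Its sign turned without vehicle 2 (0.08), anti-PD1 2 (0.02), regorafenib 2 (0.02) or combination 2 (0.07).

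The remaining hypoxia genes gave average regorafenib effects from -0.27 ± 0.29 for Ddit4, which restrains mTORC1, to 0.18 ± 0.21 for Kdm3a, a histone demethylase, none past the threshold by edgeR. The mitochondrial Higd1a had 0.13 ± 0.27, the oxygen sensor Egln1 0.09 ± 0.16, the collagen hydroxylases P4ha1 0.04 ± 0.08 and P4ha2 -0.00 ± 0.22, the mitophagy receptor Bnip3l -0.04 ± 0.11 and the MYC antagonist Mxi1 -0.12 ± 0.22. The 12 libraries spanned 149 to 414 CPM for Ddit4, 113 to 279 CPM for Kdm3a and 33.9 to 129 CPM for Higd1a. P4ha1 varied least of the 32 genes, 1.39-fold from 103 to 143 CPM, and Bnip3l spanned 97.8 to 155 CPM. Egln1 spanned 140.2 to 296 CPM, P4ha2 52.8 to 125 CPM and Mxi1 62.1 to 153 CPM.

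The messenger RNA of the regulator did not follow its targets. Hif1a, the oxygen-labile subunit, had 124, 83.3 and 114 CPM in the combination libraries, 138, 137 and 117 CPM in the regorafenib libraries, 108, 132 and 140.2 CPM in the anti-PD1 libraries and 135, 132 and 135 CPM in the vehicle libraries. The 3 vehicle libraries lay close together, combination 2 was the lowest of all 12, and combination 1, the top library for most targets, was below every vehicle library. Combination against vehicle gave -0.32 ± 0.14 (edgeR adjusted p = 0.176), and the average anti-PD1 effect was -0.18 ± 0.10 (adjusted p = 0.59). Of 10 other genes of the HIF machinery, all tested, 0 passed in the average regorafenib effect, where 9.49% of all tested genes did. Their median was 0.01. The 4 with the smallest p were Egln2 at -0.21 ± 0.10 (adjusted p = 0.182), the coactivators Ep300 at 0.18 ± 0.09 (adjusted p = 0.212) and Crebbp at 0.16 ± 0.09 (adjusted p = 0.26), and the inhibitor Cited2 at -0.22 ± 0.19 (adjusted p = 0.485). Crebbp, a histone acetyltransferase, was the 1 gene of these that passed in any of the 7 comparisons, at 0.46 ± 0.12 in combination against vehicle (adjusted p = 0.0487). That call held without anti-PD1 1 or regorafenib 1 and was lost without any other single library (adjusted p = 0.0509 to 0.176). It was also lost with RLE factors (adjusted p = 0.0502), without the filter on low counts (0.0617) and with the replicate block (0.0966), and held with only the 6 libraries compared (0.0362) and by DESeq2 (0.0132). With each library left out in turn Crebbp stayed between 0.38 and 0.54. Over all genes, 1 passed in that comparison without any 1 vehicle library, 23 without combination 1 and 12 without combination 2. With all 12 libraries 1246 passed, and without any other single library 851 to 1517 did.

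**Figure D3:**
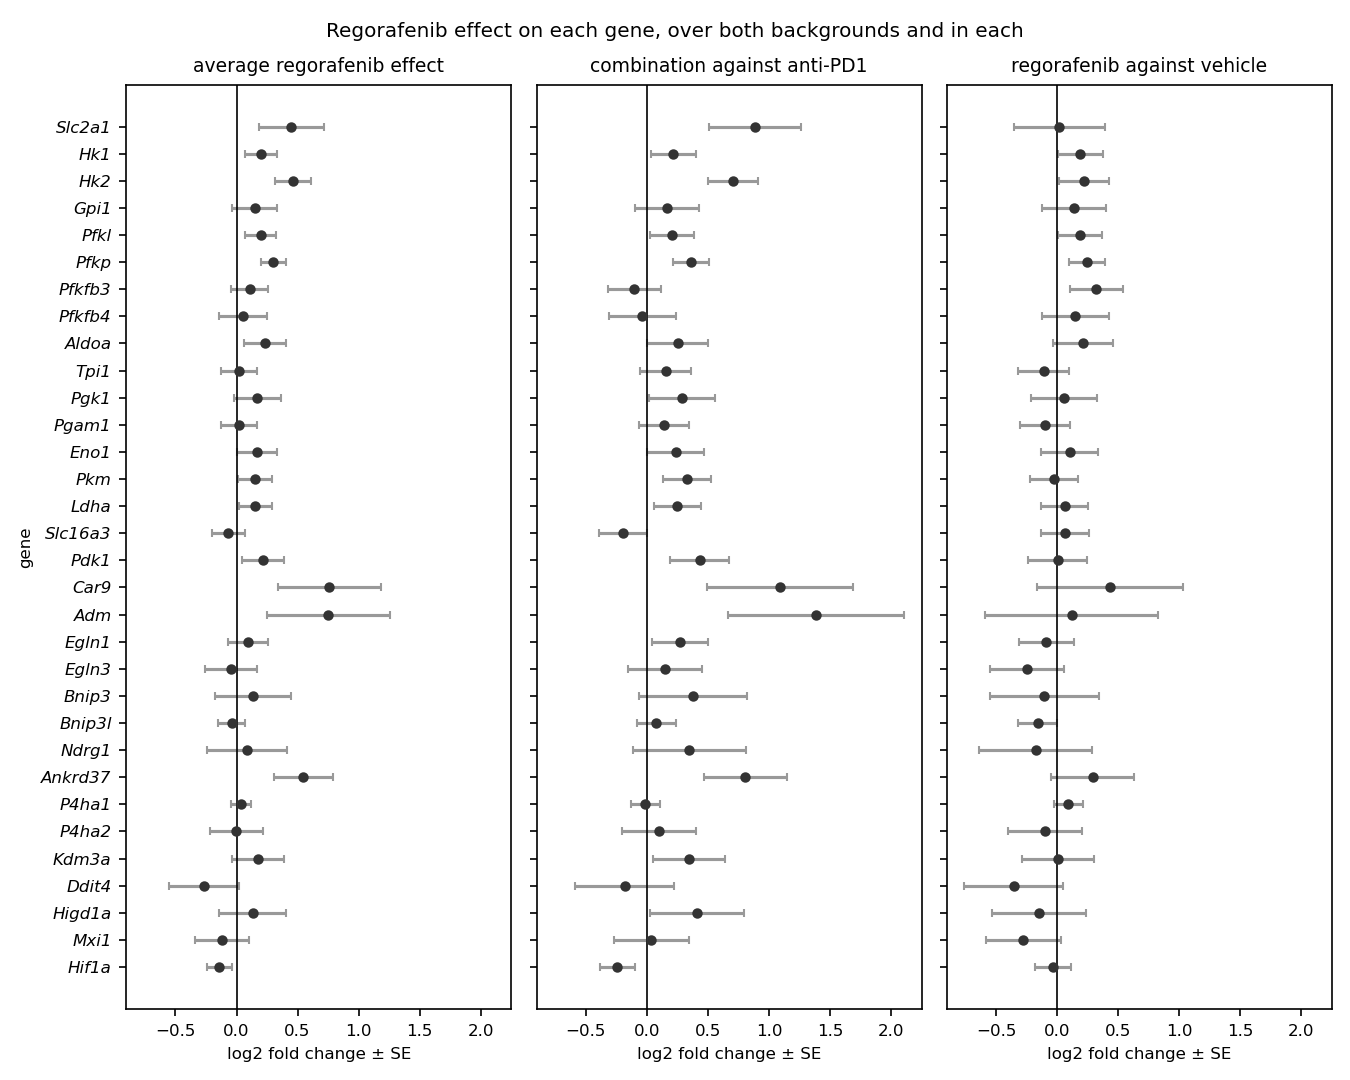
Log2 fold change with its SE for each of the 32 genes, as the average regorafenib effect (left), in combination against anti-PD1 (middle) and in regorafenib against vehicle (right). In the left panel 25 of 32 points lie above 0, with Hk2 at 0.46 and Pfkp at 0.30 having errors small beside their size, and in the right panel 19 of 32 do.

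Counted over the 32 genes, the edgeR test called 0 in the average regorafenib effect, where it called 9.49% of all tested genes. It called 0 in combination against vehicle, where 7.34% of all genes passed, 0 in combination against anti-PD1 (1.92% of all genes) and 0 in regorafenib against vehicle (0.00589% of all genes). In the average anti-PD1 effect, anti-PD1 against vehicle and the interaction, 0 of the 32 genes and 0% of all genes passed. At an unadjusted p under 0.05 the counts were 3 of 32 in the average regorafenib effect (28% of all genes), 4 in combination against vehicle (27.9%), 4 in combination against anti-PD1 (19.3%) and 0 in regorafenib against vehicle (14.1%). They were 0 in the average anti-PD1 effect (8.75%), 0 in anti-PD1 against vehicle (5.17%) and 0 in the interaction (2.65%). In every one of these the share of the 32 genes lay below the share of all genes. DESeq2 called 2 in the average regorafenib effect (16.5% of all genes), 1 in combination against vehicle (15.4%), 1 in combination against anti-PD1 (7.08%) and 0 in regorafenib against vehicle (2.5%). It called 0 in the average anti-PD1 effect (0.0648%), anti-PD1 against vehicle (0.0295%) and the interaction (0%). None of the 32 genes had the 6 regorafenib-treated libraries clear of the other 6, in either direction, as 4.64% of all genes did.

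The signs leaned one way without single genes passing, and the lean moved with single libraries. In the average regorafenib effect 25 genes were positive and 7 negative, with a median of 0.14 on the log2 scale, against 50.5% positive and a median of 0.00 over all genes. That median was 0.03 without regorafenib 3, 0.08 without combination 1 and 0.09 without anti-PD1 3, and 0.26 without regorafenib 2, 0.22 without vehicle 2 and 0.21 without combination 3. Combination against anti-PD1 had 26 positive and a median of 0.24 (all genes -0.02 and 47.9% positive), and the median was 0.01 without combination 1, 0.13 without anti-PD1 3 and 0.35 without combination 3. Combination against vehicle likewise had 26 positive, with a median of 0.21 (all genes 0.02 and 51.8% positive). It was 0.02 without combination 1 and 0.13 without vehicle 3, and 0.37 without vehicle 2 and 0.36 without combination 3. Regorafenib against vehicle had 19 positive with a median of 0.04, which was -0.18 without regorafenib 3, -0.01 without vehicle 1 and -0.04 without vehicle 3, and 0.18 without regorafenib 2 and 0.15 without vehicle 2. The average anti-PD1 effect had 24 positive with a median of 0.07, which lay between -0.05, without combination 1, and 0.18, without regorafenib 3. Anti-PD1 against vehicle had 14 positive with a median of -0.08, which turned to 0.07 without vehicle 2 and 0.04 without anti-PD1 3 and was -0.11 without anti-PD1 1. The interaction had 27 positive with a median of 0.24, which lay between 0.02, without combination 1, and 0.43, without regorafenib 3. The comparisons share libraries, so these counts are not independent of one another, and the 32 genes vary together, so their number is not a number of replicates.

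The clearest feature of the 32 genes was that they varied together between libraries of 1 treatment. After each group's mean was removed, the correlation across the 12 libraries had a median of 0.77 over the 496 pairs of these genes, and 71.0% of pairs were above 0.5. Over all pairs of tested genes the median was 0.00 and 16.1% were above 0.5. These are descriptions over 12 libraries with 8 free directions, which share depth and tissue composition. Values for pairs within other gene lists are not given here. Adm followed the median of the other genes most closely (r = 0.98), and 18 genes had r over 0.9, 9 from 0.69 to 0.9, and P4ha2 0.32. The 4 genes with a negative r were Pfkfb4 (-0.93), Pfkfb3 (-0.71), Slc16a3 (-0.47) and Hif1a (-0.20). Pfkfb4, a regulator of phosphofructokinase that HIF is known to induce in other cells, was lowest in combination 1 and highest in regorafenib 2, the reverse of Bnip3. Differences between the 4 group means made up a median of 16.2% of the variance of the 32 genes. The share ran from 2.0% for P4ha2 to 56.9% for Hk2, against a median of 36.4% over all tested genes. With 3 libraries a group, spread between libraries alone also gives such a share, and its size was not computed.

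Combination 1 was the highest library of its group for 29 of the 32 genes and combination 3 the lowest for 26. Regorafenib 3 was the highest for 23 and regorafenib 2 the lowest for 26. Anti-PD1 3 was the lowest for 26, with anti-PD1 1 and anti-PD1 2 the highest for 15 and 13, and vehicle 2 was the highest for 27 with vehicle 3 the lowest for 23. As median log2 difference from the vehicle mean, the 32 genes stood at 0.63, 0.10 and -0.09 in the combination libraries, 0.03, -0.45 and 0.39 in the regorafenib libraries, 0.08, 0.03 and -0.29 in the anti-PD1 libraries and -0.05, 0.22 and -0.15 in the vehicle libraries. The 39 other hypoxia targets described below were also highest in combination 1 (0.38) and regorafenib 3 (0.25) and lowest in regorafenib 2 (-0.24). That order was thus not particular to the 32 genes. The summed level of the 32 genes was 9354 to 14946 CPM in combination, 7358 to 13180 CPM in regorafenib, 8360 to 10642 CPM in anti-PD1 and 8793 to 12075 CPM in vehicle libraries.

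**Figure D4:**
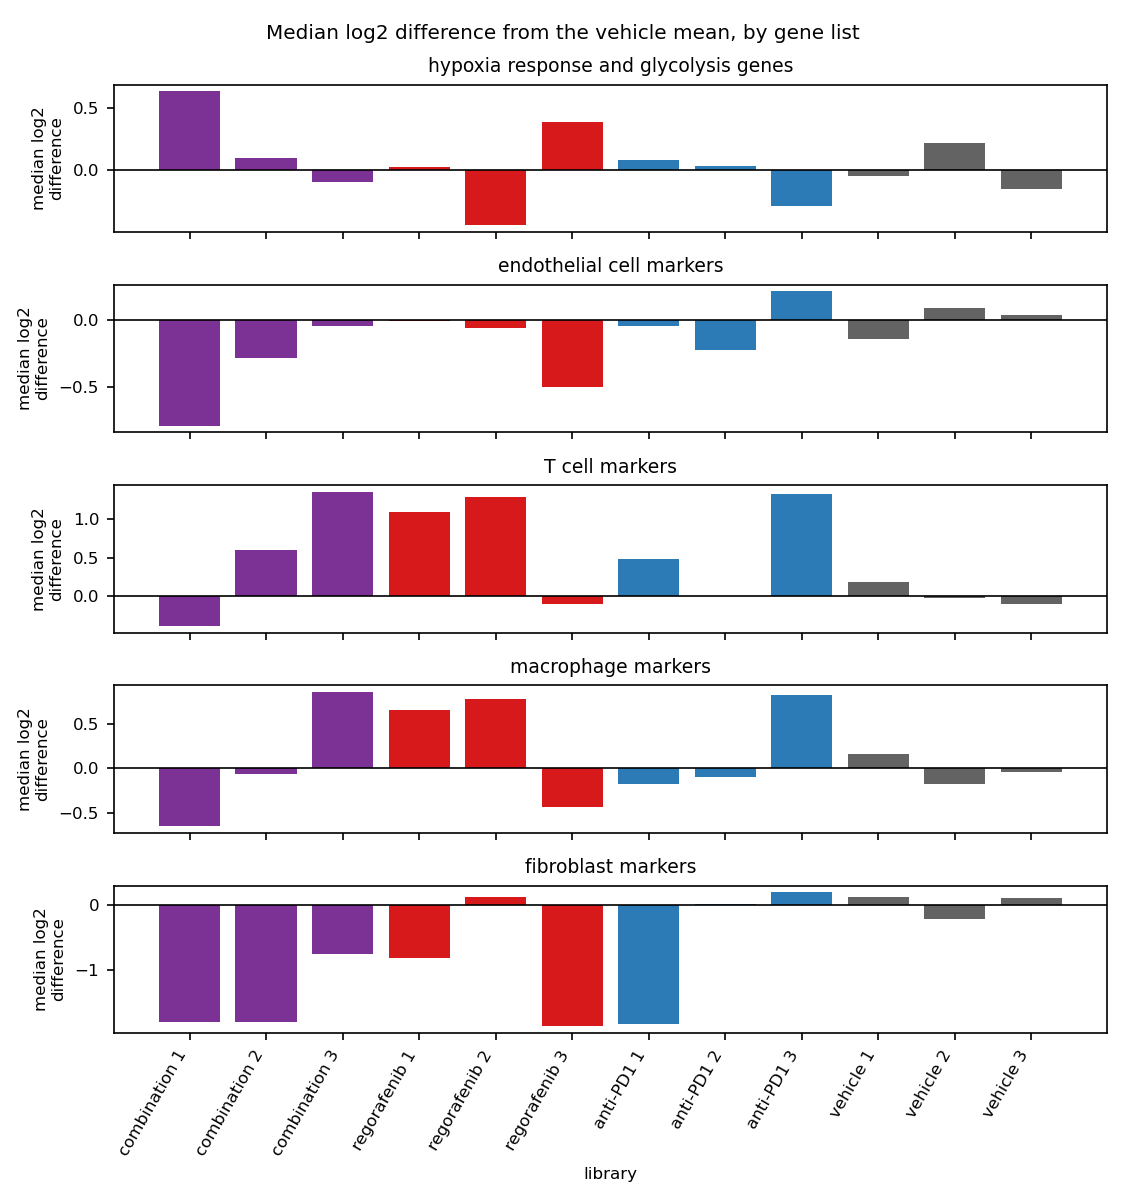
Median log2 difference from the vehicle mean in each library (bars, coloured by treatment), for the 32 genes and for markers of 4 cell types, each panel with its own axis. Combination 1 and regorafenib 3 are the highest bars for the 32 genes, at 0.63 and 0.39, and the lowest or near the lowest for the markers, whereas regorafenib 2 and anti-PD1 3 are low for the 32 genes and high for T cell and macrophage markers.

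Markers of other cells also differed between these libraries, in part in the reverse order, and their part in the order of the 32 genes was not tested. Beside the calls named below, 9.49% of all tested genes passed in the average regorafenib effect by edgeR. The 9 T cell markers, of which 0 passed in the average regorafenib effect, stood at medians of -0.39, 0.60 and 1.36 in the combination libraries, 1.09, 1.29 and -0.10 in the regorafenib libraries, 0.48, 0.01 and 1.33 in the anti-PD1 libraries and 0.19, -0.02 and -0.10 in the vehicle libraries. They were lowest in combination 1, where the 32 genes were highest, but also high in regorafenib 1 and low in vehicle 3, where the 32 genes stood at 0.03 and -0.15. The summed level of the T cell markers was 68.6 to 217 CPM in combination, 78.6 to 218 CPM in regorafenib, 85.8 to 222 CPM in anti-PD1 and 80.8 to 98.4 CPM in vehicle libraries. The 10 macrophage markers, of which 0 passed, had -0.65, -0.07 and 0.86 in the combination libraries, 0.66, 0.78 and -0.44 in the regorafenib libraries, -0.18, -0.10 and 0.82 in the anti-PD1 libraries and 0.16, -0.18 and -0.04 in the vehicle libraries. Their sums were 443 to 1263 CPM in combination, 563 to 1312 CPM in regorafenib, 659 to 1497 CPM in anti-PD1 and 670 to 843 CPM in vehicle libraries. Fibroblast markers, 10 in all, of which only Lum passed (-2.20, adjusted p = 0.0223, lost without vehicle 1, 2 or 3, anti-PD1 2 or combination 2 at 0.0502 to 0.0656), stood at -1.79 in combination 1 and -1.86 in regorafenib 3, but also at -1.79 in combination 2 and -1.82 in anti-PD1 1. Their sums were 4851 to 12812 CPM in combination, 5656 to 30182 CPM in regorafenib, 6487 to 32543 CPM in anti-PD1 and 24351 to 32580 CPM in vehicle libraries. The 16 endothelial markers stood at -0.79 in combination 1 and -0.50 in regorafenib 3, and between -0.28 and 0.21 in the other 10 libraries. The 12 squamous markers stood at 0.02, -0.10 and -0.14 in the combination libraries, -0.34, -0.34 and 0.14 in the regorafenib libraries, -0.06, 0.03 and -0.23 in the anti-PD1 libraries and -0.11, 0.18 and -0.10 in the vehicle libraries. They were highest in vehicle 2 and regorafenib 3, which were high for the 32 genes too, and low in regorafenib 2 and anti-PD1 3, which were low for them, and also low in regorafenib 1. Neutrophil markers, 9 tested, were high in combination 1 (1.27) as in 4 other libraries with regorafenib (1.20 to 1.67), and stood at 0.22 in regorafenib 3.

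Vessel genes were set against hypoxia genes for 6 pairs of single genes, Car9, Slc2a1 and Ndrg1 with Pecam1, which marks all endothelium, and Emcn, which marks capillaries and veins. Emcn had 3.00, 3.93 and 3.88 CPM in the combination libraries, 3.34, 3.39 and 4.47 CPM in the regorafenib libraries, 7.51, 6.26 and 4.99 CPM in the anti-PD1 libraries and 7.51, 8.82 and 9.18 CPM in the vehicle libraries. It fell with regorafenib, by 0.99 on the log2 scale in the average effect (edgeR adjusted p = 0.00581), and the call held with each library left out in turn. Pecam1 had 17.6, 28.8 and 35.3 CPM in the combination libraries, 34.7, 32.6 and 24.9 CPM in the regorafenib libraries, 29.4, 27.3 and 37.9 CPM in the anti-PD1 libraries and 27.2, 31.2 and 34.2 CPM in the vehicle libraries. Its groups overlapped (-0.11 ± 0.16, adjusted p = 0.718), and combination 1 and regorafenib 3 were its lowest libraries.

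Over the 12 libraries, Ndrg1 and Pecam1 had a Pearson r of -0.815 (permutation p = 0.00094, Benjamini-Hochberg adjusted over the 6 pairs 0.00564, two-sided, 100000 permutations) and a Spearman rho of -0.748 (adjusted p = 0.0404, permutation). Without the 2 libraries farthest from the median of Pecam1, anti-PD1 3 and combination 1, r was -0.693 (permutation p = 0.0288, not adjusted). Permutation p-values for such subsets of libraries, here and below, are not adjusted over the 6 pairs unless called adjusted. Within the 6 regorafenib-treated libraries r was -0.943 (exact permutation p = 0.00833), and within the other 6 it was -0.487 (exact permutation p = 0.347). Without combination 1 alone r was -0.684 and its adjusted permutation p 0.129, so the pass of this pair depended on that library. For Slc2a1 and Pecam1 r was -0.786 (adjusted permutation p = 0.013) and rho -0.587 (adjusted permutation p = 0.0953). Without the 2 farthest libraries r was -0.421 (permutation p = 0.227), so this relation rests on those libraries. It was -0.936 in the 6 libraries with regorafenib (exact permutation p = 0.0125) and -0.337 in the other 6 (exact permutation p = 0.526), -0.525 without combination 1 (adjusted permutation p = 0.203) and -0.767 without regorafenib 3 (adjusted permutation p = 0.0547).

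For Car9 and Pecam1 r was -0.672 (adjusted permutation p = 0.0253) and rho -0.622 (adjusted permutation p = 0.0953). It was -0.491 without the 2 farthest libraries (permutation p = 0.15), -0.704 in the 6 libraries with regorafenib (exact permutation p = 0.104) and -0.405 in the other 6 (exact permutation p = 0.388), so it too rests on those libraries. The adjusted permutation p was 0.203 without combination 1 (r = -0.543), 0.063 without regorafenib 3 (-0.642), 0.0582 without anti-PD1 3 (-0.638) and 0.0505 without vehicle 3 (-0.652). With Emcn, r was -0.224 for Car9, -0.287 for Slc2a1 and 0.064 for Ndrg1, none past the threshold (adjusted permutation p = 0.576, 0.558 and 0.84). All these permutations shuffled libraries without regard to treatment group. With each group's mean removed, r with Pecam1 was -0.829 for Ndrg1, -0.781 for Slc2a1 and -0.619 for Car9. With Emcn it was 0.146 for Ndrg1, 0.004 for Slc2a1 and 0.456 for Car9, and these values were not tested. T cell and macrophage markers were low in the same 2 libraries as Pecam1, and their part in these relations was not tested.

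**Figure D5:**
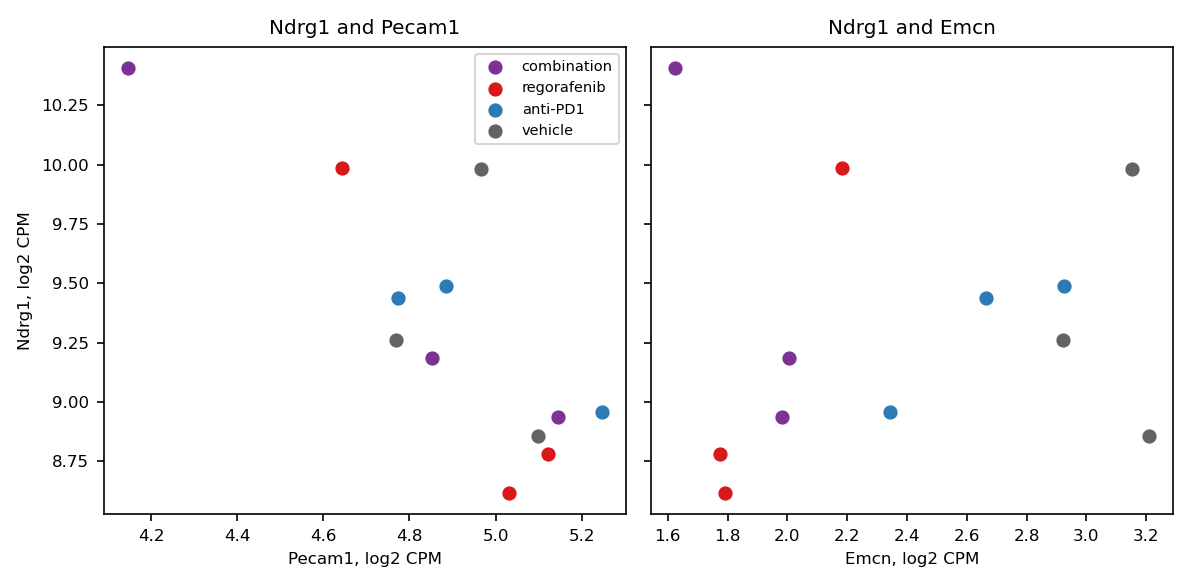
Log2 CPM of Ndrg1 (vertical) against Pecam1 (left) and Emcn (right), 1 point per library coloured by treatment. In the left panel points fall from combination 1 at the top left (r = -0.815), and in the right panel the libraries with regorafenib lie to the left at any level of Ndrg1 (r = 0.064).

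Some genes of the same pathways outside the 32 did pass. Of 39 other hypoxia targets, 2 passed upward and 3 downward for the average regorafenib effect, beside 9.49% of all tested genes. In that list 28 were positive, with a median of 0.12, against 50.5% positive over all genes. Wsb1, an adaptor of a ubiquitin ligase, had 114, 119 and 99.7 CPM in the combination libraries, 124, 89.0 and 101 CPM in the regorafenib libraries, 68.3, 69.2 and 71.8 CPM in the anti-PD1 libraries and 73.6, 73.3 and 75.5 CPM in the vehicle libraries. All 6 libraries with regorafenib were above the other 6, the effect was 0.59 ± 0.08 (edgeR adjusted p = 0.00496), and the call held with each library left out in turn. Vegfa, the main growth factor of vessels and the ligand of receptors that regorafenib blocks, had 234, 146 and 112 CPM in the combination libraries, 137, 89.6 and 176 CPM in the regorafenib libraries, 86.9, 68.3 and 58.1 CPM in the anti-PD1 libraries and 89.1, 126 and 61.3 CPM in the vehicle libraries. It rose by 0.87 ± 0.24 on the log2 scale (adjusted p = 0.0476), with combination 1 highest as for most of the 32 genes, and it passed without anti-PD1 1, regorafenib 2 or combination 3 but not without any other single library (adjusted p = 0.0548 to 0.117). Lox, a collagen cross-linker (-0.77 ± 0.21, adjusted p = 0.0438), Loxl2 (-1.50 ± 0.42, adjusted p = 0.0496) and Cox4i2, also a pericyte marker (-1.26 ± 0.35, adjusted p = 0.0476), fell. Lox kept its call without the same 3 libraries as Vegfa, and Cox4i2 without anti-PD1 1, regorafenib 1 or regorafenib 2, and each lost it without any other single library, at adjusted p-values of 0.0607 to 0.114. Loxl2 kept its call without anti-PD1 1 or regorafenib 2 and lost it without any other (adjusted p = 0.0526 to 0.123). Over all genes, 1659 to 2048 passed without anti-PD1 1, regorafenib 2 or combination 3, and 460 to 1411 without any other single library.

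Of 23 tested genes among 25 other glycolytic genes, 1 was higher and 4 lower, with 12 positive and a median of 0.01. The insulin-regulated transporter Slc2a4 rose (0.57 ± 0.13, edgeR adjusted p = 0.0254), and the pyruvate carriers of mitochondria Mpc1 (-0.21 ± 0.05, adjusted p = 0.0318) and Mpc2 (-0.24 ± 0.06, adjusted p = 0.0367), Pgm2 (-0.25 ± 0.06, adjusted p = 0.0287) and Pdk3 (-0.26 ± 0.07, adjusted p = 0.0386) fell. All 25 genes of the citric acid cycle and respiratory chain had negative values, with a median of -0.14, of which Sdhc (-0.23 ± 0.06, adjusted p = 0.0335), Ndufa9 (-0.24 ± 0.07, adjusted p = 0.0462) and Sdhb (-0.23 ± 0.06, adjusted p = 0.0482) passed. Without vehicle 1, 2 or 3, anti-PD1 2 or combination 2 the calls of Slc2a4, Pgm2, Mpc1, Mpc2, Sdhc, Ndufa9 and Sdhb were lost, at adjusted p-values of 0.0519 to 0.109. Calls over all genes fell as well in these fits, from 1610 to 556, 556, 552, 460 and 522 in that order. With each library left out in turn, Slc2a4 stayed between 0.50 and 0.64, and the others of these genes between -0.29 and -0.19. Other libraries whose removal ended a call were anti-PD1 3 and regorafenib 3 for Pgm2, anti-PD1 3 and combination 1 for Mpc1, regorafenib 1 and combination 1 for Mpc2, and regorafenib 2, regorafenib 3 and combination 1 for Sdhc. Pdk3 kept its call without regorafenib 1 or vehicle 3 and lost it without any other (adjusted p = 0.0577 to 0.103). Ndufa9 kept its call without regorafenib 1, and Sdhb without anti-PD1 1 or regorafenib 1. Against these shares the background is again 9.49% of all genes, 1046 higher and 564 lower.

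Other lists in the average regorafenib effect, by edgeR, were as follows, beside a share of 9.49% of all tested genes that passed. Calls lost without single libraries stand beside the changed counts over all genes given above. Of 16 endothelial markers 3 fell (Emcn, Cldn5 at -0.95, adjusted p = 0.0139, and Tie1 at -0.50, adjusted p = 0.0245), with a median of -0.26. Signs were negative for 12 and positive for 4 of them, with Vwf highest at 0.54 (adjusted p = 0.101). The call of Tie1 was lost without vehicle 2 or 3, anti-PD1 2 or 3, or combination 2 (adjusted p = 0.054 to 0.0677). Of 9 tip cell genes besides Adm, Kcne3, Nid2, Apln, Dll4 and Angpt2 fell, which is 5, with a median of -0.59. Among these 9 genes 6 were negative and 3 positive, with Cxcr4 highest at 0.49 (adjusted p = 0.325). Apln, Dll4 and Angpt2 lost their calls without vehicle 1, 2 or 3, anti-PD1 2 or combination 2, and Angpt2 also without anti-PD1 3 or regorafenib 3 (adjusted p = 0.0511 to 0.0722). Of 9 pericyte markers Abcc9, Kcnj8 and Cox4i2 fell, with a median of -0.54. The pericyte list had 6 negative and 3 positive values, with Cspg4 highest at 1.08 (adjusted p = 0.133). Kcnj8 lost its call without vehicle 1, 2 or 3, anti-PD1 2, regorafenib 3, combination 1 or combination 2 (adjusted p = 0.0546 to 0.0754). Neutrophil markers were positive for 9 of the 9 tested and 2, Clec4d and Trem1, rose, with a median of 1.28. Trem1 kept its call only without anti-PD1 1, regorafenib 2 or combination 3 (adjusted p = 0.0593 to 0.0919 without the others). Krt14 fell among 12 squamous markers (-0.52, adjusted p = 0.0303), whose median was -0.06, and lost the call without vehicle 1, 2 or 3, anti-PD1 2, regorafenib 1 or combination 2 (adjusted p = 0.0556 to 0.0811). In 11 skeletal muscle genes, 3 tested genes of red blood cells and 10 cell cycle genes 0 passed, with medians of 0.47, -0.64 and -0.05. Muscle genes stood at 21.2 CPM in sum in regorafenib 1 and at 126 to 522 CPM in the other libraries.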

How the data were processed

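Polyadenylated RNA of 12 tumour samples was sequenced with a stranded kit, per the labels' protocols, and the authors deposited raw read counts per Ensembl gene in 1 table. The submitters' processing notes name cutadapt 2.4, STAR 2.7.2a and GRCm38; which program counted the reads, whether by strand, and on which annotation is not given in the sources used here, so reads of antisense or near-identical genes may be shared. Symbols, coordinates and exon lengths came from GENCODE M21 (55227 identifiers matched). Genes were kept by filterByExpr (minimum count 10, minimum total count 15) and fitted with edgeR 4.0.16 (R 4.3.3, TMM factors, robust quasi-likelihood F test, two-sided) as 4 group means over 12 libraries with 8 residual degrees of freedom. The common biological coefficient of variation was 0.2267. p-values were Benjamini-Hochberg adjusted over 16974 genes in each of 7 comparisons. Log2 CPM used a prior count of 2. Vessel relations used 100000 permutations for 12 libraries and exact permutation for 6. The procedure was tested on simulated data. Depth ranged from 22591835 to 28209036 counts. Alternatives were DESeq2 1.42.0, RLE factors, no filter, the replicate number as a block, an additive model, only the 6 libraries compared, and each library left out in turn.

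Values in every library are given for a panel of 11 genes, for the 6 genes of smallest p in the average regorafenib effect and the 2 of smallest p in each other comparison. For other lists up to 4 genes of smallest p were named, and Loxl2, Pdk3 and Angpt2 were added after their values were seen to complete counts. The genes and lists were chosen with earlier results of these data known. Aldoa has 2 identifiers, of which that with more counts was used. Copies and overlapping genes were taken from the annotation.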

Additional observations from a re-analysis of the deposited data

How the results depend on the processing

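The edgeR count of 0 of the 32 genes held in all 7 comparisons under RLE factors, without the filter on low counts and with the replicate block, and in those to which they apply under the additive model and with only the 6 libraries compared. DESeq2 called 2 in the average regorafenib effect, 1 in combination against anti-PD1 and 1 in combination against vehicle. With each library left out in turn the count was 0 to 2 in the average regorafenib effect, 0 to 1 in combination against vehicle and 0 in the other 5 comparisons. Over these removals the average regorafenib effect lay between -0.144 and 0.272 for Bnip3, -0.202 and 0.079 for Egln3, and -0.209 and 0.268 for Ndrg1. Car9 with Pecam1 gave r = -0.491 without the 2 farthest libraries, -0.704 in the 6 libraries with regorafenib, -0.405 in the 6 without, and -0.739 to -0.543 with single libraries left out. Slc2a1 with Pecam1 gave -0.421 without the 2 farthest, -0.337 in the 6 without regorafenib, and -0.866 to -0.525. Ndrg1 with Pecam1 gave -0.487 in the 6 without regorafenib, and -0.914 to -0.684. Car9 with Emcn turned to 0.214 in the 6 libraries with regorafenib and 0.259 in the 6 without. Slc2a1 with Emcn turned to 0.47 in the 6 without, and ran from -0.504 to 0.012 with single libraries left out. Ndrg1 with Emcn turned to -0.018 in the 6 with regorafenib, and ran from -0.112 to 0.446. The cause was not tested. Replicate numbers were not treated as pairs in the main fit. Of 18 same-number pairs of libraries, 2 correlated above 0.1 in their deviations (range -0.657 to 0.63). Of 36 pairs with different numbers, 17 did (range -0.499 to 0.531). With 3 libraries a group these values cannot exclude a pairing or a shared batch. With the replicate block Hk2 had an average regorafenib effect of 0.46 (edgeR adjusted p = 0.112) and 504 of all genes passed, against 1610 without it. Without the filter 959 passed, and DESeq2 called 2808. With 1 library left out, 460 (anti-PD1 2) to 2048 (anti-PD1 1) of all genes passed in the average regorafenib effect. In combination against vehicle 1246 passed, 11 with the block, 663 without the filter, 2068 with only the 6 libraries compared and 2614 by DESeq2. With 3 libraries a group and the spread between libraries described above, only differences large beside an SE of 0.1 to 0.5 on the log2 scale could pass in the average regorafenib effect.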
